A study of Drosophila melanogaster with 12 samples.

Results

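Peptidoglycan recognition proteins (PGRPs) are the sensors and scavengers of bacterial cell wall in insects. In flies, DAP-type peptidoglycan is bound by PGRPs that switch on the Imd pathway, whose NF-kappaB factor Relish drives genes for antimicrobial peptides, whereas Lys-type peptidoglycan is bound by circulating PGRPs that act upstream of the Toll receptor. Other members are amidases that cut peptidoglycan, and by doing so lower the signal that reaches the receptors. Fat body, haemocytes and barrier epithelia such as gut and trachea are the tissues best known for this system.

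The family genes described here are *PGRP-SA*, *PGRP-SD*, *PGRP-LA*, *PGRP-LB*, *PGRP-LC*, *PGRP-LE*, *PGRP-LF*, *PGRP-SB1* and *PGRP-SC2*. These 9 genes were found by symbol, also where an entry names several genes separated by commas, and all 9 occurred in all 6 RNA-Seq libraries among 17592 gene symbols that did so. The other 4 genes of the family of 13, *PGRP-LD*, *PGRP-SB2*, *PGRP-SC1a* and *PGRP-SC1b*, serve as company.

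The tissue was the second (T2) leg of *Drosophila melanogaster* pupae, taken 20 to 28 hours after puparium formation (hAPF) at the time when leg trichomes are specified. The first strain was eworo, which carries *ebony*[4], *white ocelli*[1] and *rough*[1] and has a large naked valley, the trichome-free patch of the femur. The second strain was Oregon R (OreR), which has a small one. The labels name no infection of either strain. Per strain 3 RNA-Seq and 3 ATAC-Seq replicates were made, each from the pooled legs of many pupae. The strains differ in their whole genetic background as well as in the 3 visible markers, so that none of these can be told apart as a source of a difference, and the labels do not say whether replicates came from separate cultures. In such bulk samples fewer cells of a type and less RNA per cell cannot be told apart either.

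Expression is in FPKM, fragments scaled to the length of the transcript and to the depth of the library, which allows levels of different genes to be set side by side per length. Leg identity was checked with markers of leg epidermis. The appendage genes *Dll* and *dac*, the cadherin gene *shg* and *Egfr* were expressed in every library, and the sum over 5 of the 8 listed genes, those with comparable entries, ran from 269.7 to 436 FPKM in eworo and from 400.4 to 484 FPKM in OreR. The 6 libraries were close in scale, with factors between 0.998 and 1.01. A comparison of the strains with limma over 4844 entries called 127 of them at an adjusted p under 0.05, 83 higher and 44 lower in eworo.

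The entries of 4 of the 9 genes are not simple. Cufflinks assembled every library separately and joined neighbouring genes in 1 entry, which concerned *PGRP-LA*, *PGRP-LC*, *PGRP-LE* and *PGRP-LF*. Of the 54 library values of the 9 genes, 18 belonged to joined entries and 14 were an exact 0. Such a 0 can be a failed estimate: among entries of single genes listed at 0 in all 3 libraries of a strain, 12.9% in eworo (211 of 1642) and 10.7% in OreR (222 of 2078) had more than 1 FPKM in the authors' table with 1 value per strain. That table, which lists *PGRP-LA*, *PGRP-LC*, *PGRP-LE* and *PGRP-LF* separately, is therefore given beside the libraries. Its values carry confidence limits and no replicate spread.

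**Figure D1:**
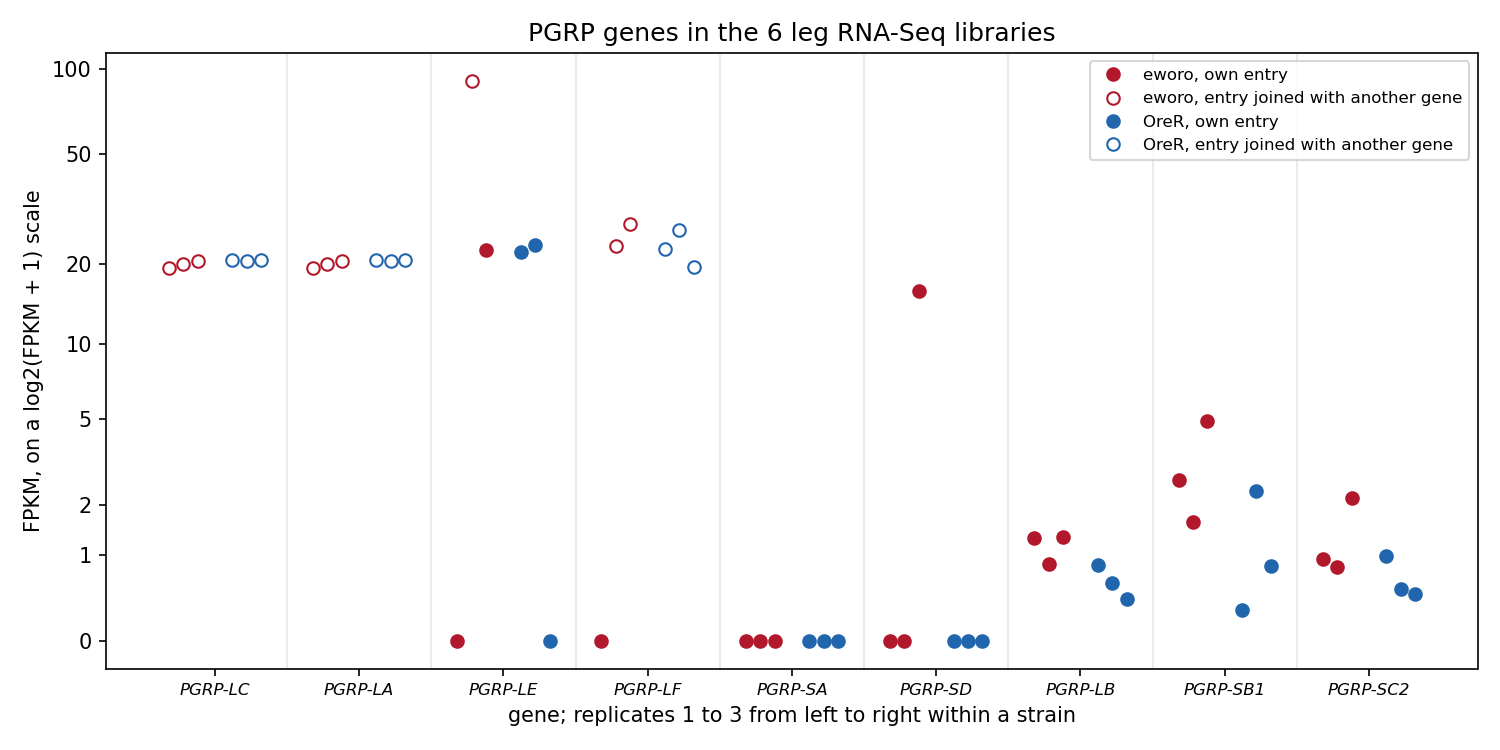
FPKM of the 9 PGRP genes in each library, on a log2(FPKM + 1) axis, with the 3 eworo libraries (red) left of the 3 OreR libraries (blue) for every gene; open circles are entries joined with another gene. The joint *PGRP-LA* and *PGRP-LC* entry lies between 19.2 and 20.6 FPKM in all 6 libraries, *PGRP-SA* is at 0 in all of them, and the amidase genes at the right are below 5 FPKM.

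The receptors of the Imd pathway were the most expressed members in T2 legs, and no difference between the strains was found for them. *PGRP-LC* (FBgn0035976, chromosome 3L, 9338810 to 9348336, release 6), the transmembrane receptor for DAP-type peptidoglycan, lies 473 bp from *PGRP-LA* (FBgn0035975, 9334332 to 9338336), which acts on the same pathway and lacks the residues that bind peptidoglycan. Cufflinks placed both genes in a single entry in all 6 libraries. This entry had 19.2, 20.0 and 20.4 FPKM in eworo replicates 1 to 3, against 20.6, 20.4 and 20.6 FPKM in OreR replicates 1 to 3. The strains overlapped, narrowly, at 20.4 FPKM, and the fitted log2 difference (eworo minus OreR) was -0.04 ± 0.08 (SE, n = 3 per strain), with a 95% interval from -0.24 to 0.16 and an adjusted p of 0.795 in limma. The interval leaves room for differences of that size in either direction, and scaling the libraries by their upper quartile gave 0.0033 in place of -0.04.

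Few entries varied as little between libraries. The coefficient of variation of the *PGRP-LA* and *PGRP-LC* entry over the 6 libraries was 2.61%, against a median of 18.8% over the 4844 entries compared. Only 3 of these entries, itself included, were at or below that value. Within strains it was 3.11% in eworo and 0.446% in OreR, where the medians over all entries compared were 16.4% and 11.6%. These are descriptions, since 3 libraries give a coarse estimate of the spread of a single entry. The medians are over entries of every level above 1 FPKM, some with an exact 0 in a library, and were not matched to the level of this entry.

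In the authors' table the joint signal was split, and most of it went to the receptor. *PGRP-LC* had 16.2 FPKM in eworo (limits 10.4 to 22.0) and 15.8 FPKM in OreR (limits 10.2 to 21.5). *PGRP-LA* had 4.13 FPKM in eworo (limits 2.22 to 6.03) and 4.25 FPKM in OreR (limits 2.25 to 6.25). Per length *PGRP-LC* was thus 3.93 times the level of *PGRP-LA* in eworo and 3.72 times in OreR, with limits that did not overlap in either strain. The 2 genes added up to 20.3 in eworo and 20.1 FPKM in OreR, near the library means of the joint entry, 19.9 in eworo and 20.5 FPKM in OreR.

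*PGRP-LE* (FBgn0030695, chromosome X, 15801153 to 15803880) encodes a sensor that detects peptidoglycan fragments inside cells and also outside them. It was listed at 0 in eworo replicate 1, had 91.0 FPKM in eworo replicate 2 and 22.4 FPKM in eworo replicate 3, against 22.1, 23.5 and 0 FPKM in OreR replicates 1 to 3. The high value is that of an entry joined with *CG32581* and *CG8974*, so the 3 values of its own entry above 0 were within 22.1 to 23.5 FPKM, 1 in eworo and 2 in OreR. The authors' value was 20.5 FPKM in eworo (limits 13.2 to 27.7) and 19.3 FPKM in OreR (limits 12.5 to 26.2). It was the highest of the 9 in both strains, above 77.5% of the 17566 entries of that table in eworo and 76.6% in OreR. Its limits overlapped those of *PGRP-LC*, the next in order, in both strains. With the entry values as they stand, zeros and joined entry included, the fitted log2 difference was 0.64 ± 2.18 (SE, n = 3 per strain; limma, adjusted p = 0.902), an interval too wide (-4.93 to 6.21) to say more.

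*PGRP-LF* (FBgn0035977, chromosome 3L, 9349609 to 9351489) lies 1272 bp beyond *PGRP-LC* and encodes a membrane protein without a signalling tail that binds PGRP-LC and keeps it inactive. It had an entry of its own only in eworo replicate 1, where it was listed at 0. The entry joined with *CG32040* held 23.2 and 28.0 FPKM in eworo replicates 2 and 3, against 22.7, 26.7 and 19.5 FPKM in OreR replicates 1 to 3. Nearly all of this belonged to the neighbour in the authors' table, in which *CG32040* had 18.2 in eworo and 14.1 FPKM in OreR. *PGRP-LF* itself had 0.988 FPKM in eworo (limits 0 to 3.78) and 0.629 FPKM in OreR (limits 0 to 2.93). The inhibitor was therefore at or below 1 FPKM beside a receptor near 16 FPKM, although its upper limits exceed 1 FPKM, and the strains' limits overlapped almost entirely.

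**Figure D2:**
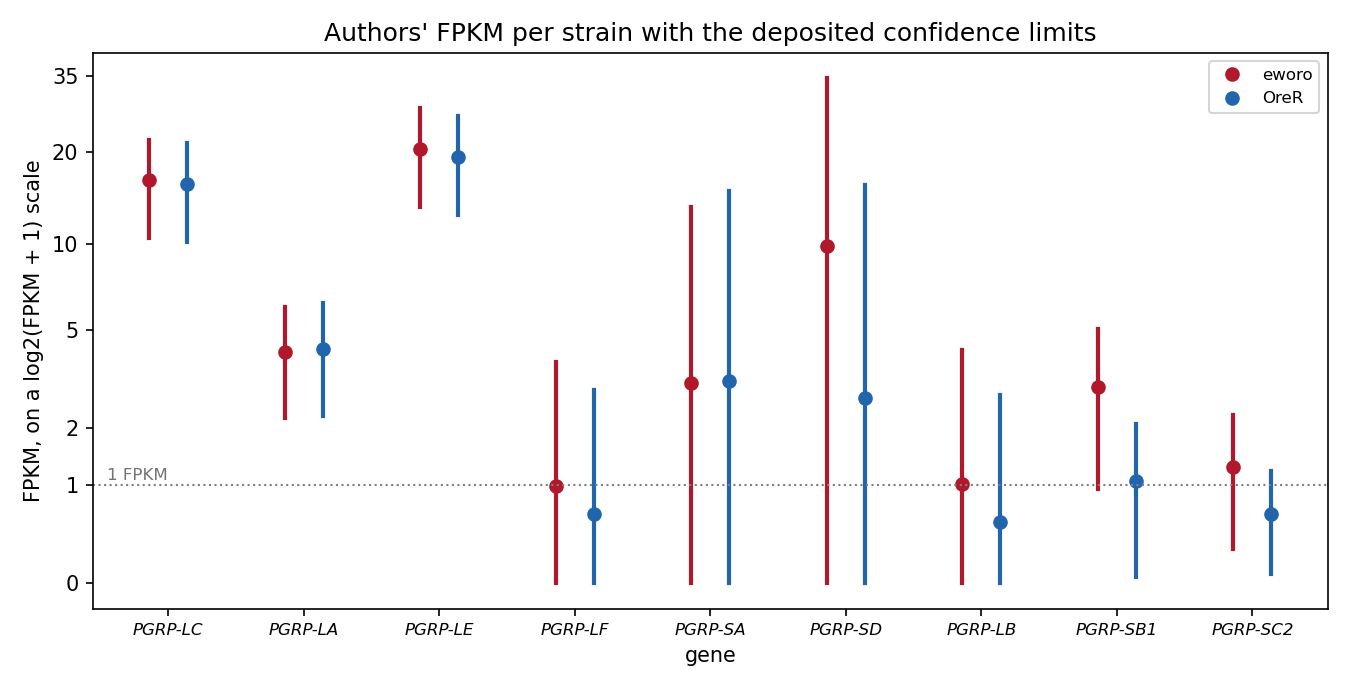
The authors' FPKM of the 9 PGRP genes, with 1 value per strain (eworo red, left; OreR blue, right) and bars for the deposited confidence limits, on a log2(FPKM + 1) axis; the dotted line is 1 FPKM. *PGRP-LC* and *PGRP-LE* lie between 15.8 and 20.5 FPKM with limits clear of 1 FPKM, the limits of *PGRP-LF*, *PGRP-SA*, *PGRP-SD* and *PGRP-LB* reach 0, and the limits of the strains overlap for each of the 9 genes.

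The PGRPs of the Toll pathway were poorly measured, with most library values at 0 and authors' limits that began at 0. *PGRP-SA* (FBgn0030310, chromosome X, 11561643 to 11562779), the circulating sensor of Lys-type peptidoglycan, was listed at 0 in all 6 libraries. In the authors' table it had 3.12 FPKM in eworo (limits 0 to 13.3) and 3.18 FPKM in OreR (limits 0 to 14.9), within a merged locus of 15277 bp for a gene of 1137 bp. GNBP1, with which PGRP-SA works in sensing, was abundant by contrast: *GNBP1* had 159, 125 and 142 FPKM in eworo replicates 1 to 3, against 127, 127 and 105 FPKM in OreR replicates 1 to 3. Its log2 difference was 0.25 ± 0.13 (SE, n = 3 per strain; limma, adjusted p = 0.400).

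*PGRP-SD* (FBgn0035806, chromosome 3L, 7651180 to 7651900), a secreted partner of PGRP-SA, had 0, 0 and 15.9 FPKM in eworo replicates 1 to 3 and was listed at 0 in all 3 OreR libraries. The value of eworo replicate 3, with limits of 14.4 to 17.3 FPKM, is thus the only one above 0. The authors' values were 9.82 FPKM in eworo (limits 0 to 34.4) and 2.69 FPKM in OreR (limits 0 to 15.6), within a merged locus of 108576 bp. The fitted log2 difference was 1.36 ± 1.17 (SE, n = 3 per strain) with an interval from -1.58 to 4.30 and an adjusted p of 0.562 in limma, and it rests on that 1 library, without which every value is 0.

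The amidases were low, and higher in their eworo means without any passing the test. *PGRP-SB1* (FBgn0043578, chromosome 3L, 16727299 to 16727989), a secreted amidase, had 2.66, 1.60 and 4.89 FPKM in eworo replicates 1 to 3, against 0.278, 2.35 and 0.825 FPKM in OreR replicates 1 to 3. OreR replicate 2 lay above eworo replicate 2, so the strains overlapped. The means were 3.05 ± 1.68 in eworo and 1.15 ± 1.07 FPKM in OreR (mean ± SD, n = 3 per strain), and the log2 difference was 0.95 ± 0.48 (SE) with an interval from -0.25 to 2.14 and an adjusted p of 0.388 in limma. Leaving out single libraries moved it between 0.63, without OreR replicate 1, and 1.32, without OreR replicate 2. The authors' values were 2.99 FPKM in eworo (limits 0.949 to 5.04) and 1.06 FPKM in OreR (limits 0.0470 to 2.08).

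*PGRP-LB* (FBgn0037906, chromosome 3R, 11452849 to 11460552) encodes an amidase that degrades DAP-type peptidoglycan and damps the Imd response. Its level was 1.28, 0.854 and 1.31 FPKM in eworo replicates 1 to 3, against 0.848, 0.592 and 0.396 FPKM in OreR replicates 1 to 3. The strains did not overlap, but eworo replicate 2 and OreR replicate 1 were nearly equal, each well inside the confidence limits of the other. The means were 1.15 ± 0.255 in eworo and 0.612 ± 0.227 FPKM in OreR (mean ± SD, n = 3 per strain), with a two-sided exact permutation p of 0.1, the smallest that 3 against 3 libraries can give. A limma fit over all 9503 entries with no filter on low values gave *PGRP-LB* a log2 difference of 0.42 ± 0.16 (SE), an interval from 0.01 to 0.82 and an adjusted p of 0.387. Among 4659 entries above 0 and at or below 1 FPKM, 9.68% had all eworo libraries above all OreR libraries.

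*PGRP-SC2* (FBgn0043575, chromosome 2R, 8716950 to 8717695), an amidase best known from the gut, had 0.934, 0.812 and 2.16 FPKM in eworo replicates 1 to 3, against 0.977, 0.523 and 0.458 FPKM in OreR replicates 1 to 3. OreR replicate 1 exceeded both eworo replicates 1 and 2. The means were 1.30 ± 0.748 in eworo and 0.653 ± 0.283 FPKM in OreR (mean ± SD, n = 3 per strain; exact permutation p = 0.3), and the log2 difference of 0.45 in the fit without filter (adjusted p = 0.509) was 0.19 without eworo replicate 3.

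The other genes of the family were near 0 or hidden in a joined entry. *PGRP-SC1a* and *PGRP-SC1b*, nearly identical amidase genes between which reads may be shared, lie next to *PGRP-SC2*, and *PGRP-SB2* lies 10 bp from *PGRP-SB1*. *PGRP-SC1a* had 0.123, 0.147 and 0.555 FPKM in eworo replicates 1 to 3, against 0, 0 and 0.0223 FPKM in OreR replicates 1 to 3. *PGRP-SC1b* had 0.0756, 0.102 and 0.408 FPKM in eworo replicates 1 to 3, against 0.0125, 0 and 0.0205 FPKM in OreR replicates 1 to 3. In both the strains did not overlap (exact permutation p = 0.1 each), at levels far below 1 FPKM. Of the 4659 entries above 0 and at or below 1 FPKM, 9.68% had all eworo libraries above all OreR libraries. *PGRP-SB2* reached 0.279 FPKM in eworo replicate 3 and at most 0.0725 FPKM in OreR, with overlapping strains (exact permutation p = 0.3). *PGRP-LD* shared its entry with *Pmi*, which had 15.1 to 16.9 FPKM over the eworo libraries and 14.3 and 15.3 FPKM in OreR replicates 1 and 2, and with *scny* too in OreR replicate 3 (42.7 FPKM).

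Counted together, 0 of the 3 entries of these genes that were compared across the genome passed the test, and 0 were under an unadjusted p of 0.05, where 2.62% of all entries compared were called and 15.2% were under that unadjusted p in limma. The unfiltered limma fit, in which 1.41% of 9503 entries were called, called none of *PGRP-LB*, *PGRP-SC2*, *PGRP-SB2*, *PGRP-SC1a* and *PGRP-SC1b* either, and of them *PGRP-LB* alone was under an unadjusted p of 0.05, as were 12.6% of all entries in that fit. Means above 1 FPKM, the limit of expression that the study uses, were found for 8 of the 9 in eworo (52.7% of all gene symbols) and 5 in OreR (52.1%), with joined entries counted as they stand, and for 5 in both, where 49.1% of all 17592 gene symbols were above it in both. By the authors' values 8 were above it in eworo, 6 in OreR and 6 in both (47.3% of all entries of that table). The authors' value was higher in eworo for 7 of the 9, and this held for 56.6% of all its entries above 0.

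In order of the authors' values, *PGRP-LE* and *PGRP-LC* came first in both strains, and *PGRP-LB*, *PGRP-SC2* and *PGRP-LF* took the last 3 places of the 9. *PGRP-SD* was the third in eworo and the fifth in OreR. The limits of neighbours in this order overlapped everywhere except between *PGRP-LC* and *PGRP-LA* in OreR, where *PGRP-LA* was the third. The order of neighbours below *PGRP-LA* is thus not resolved by these values.

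The highest values of the low members came from 1 library. Of the 4 members with own entries above 0 outside the receptors, *PGRP-SD*, *PGRP-SB1*, *PGRP-LB* and *PGRP-SC2*, each was highest in eworo replicate 3. So were *PGRP-SB2*, *PGRP-SC1a* and *PGRP-SC1b*. For *PGRP-SD* this only restates that its other values are 0, and *PGRP-SC1a* and *PGRP-SC1b* may share reads. These 7 genes are therefore not 7 separate instances, and *PGRP-SA*, at 0 in every library, has no highest value. That library held the highest of the 6 values in 16.8% of all entries compared and in 31.5% of the 4659 entries above 0 and at or below 1 FPKM. The joint *PGRP-LA* and *PGRP-LC* entry was highest in OreR replicate 1 instead. Without eworo replicate 3 the log2 difference of *PGRP-SB1* was 0.64 in place of 0.95, that of *PGRP-LB* 0.36 in place of 0.42, and that of *PGRP-SC1a* 0.17 in place of 0.32.

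Genes for antimicrobial peptides, the outputs of both pathways, showed the same library. Their summed level over 13 entries was 124, 122 and 344 FPKM in eworo replicates 1 to 3, against 135, 264 and 184 FPKM in OreR replicates 1 to 3, and 7 of the 9 entries compared were highest in eworo replicate 3. The sum of fat body markers, 7 of 12 with comparable entries, was also highest there. It was 251, 191 and 435 FPKM in eworo replicates 1 to 3, against 316, 274 and 357 FPKM in OreR replicates 1 to 3. Of 6 entries compared 4 were highest in that library, but *Lsp2* and *apolpp* were not. *Lsp2* had 233 FPKM there and 262 FPKM in OreR replicate 3. *apolpp* was listed at 0 in all eworo libraries, against 2.99 to 19.3 FPKM in OreR, although the authors' eworo value was 9.66 FPKM. Of the 13 haemocyte markers 9 had means above 1 FPKM in both strains, joined entries included, where 49.1% of all gene symbols had. By the authors' values 7 were above it in both, as were 47.3% of all entries of that table. The summed level over their 6 comparable entries was 38.8, 25.4 and 4.39 FPKM in eworo replicates 1 to 3, against 22.1, 53.6 and 2.62 FPKM in OreR replicates 1 to 3. Most of it was *crq*, a scavenger receptor gene, which was listed at 0 in replicate 3 of both strains although the authors' value was 38.4 FPKM for eworo and 43.8 FPKM for OreR. Without *crq* the sum was 3.51, 7.40 and 4.39 FPKM in eworo replicates 1 to 3, against 3.10, 1.11 and 2.62 FPKM in OreR replicates 1 to 3, and eworo replicate 2 was the highest. The phagocyte gene *NimC1* had an authors' value of 20.2 FPKM in eworo, against 20.4 FPKM in OreR, whereas *PPO1* and *PPO2*, which mark crystal cells alone, stayed at or below 0.122 FPKM in every library. The haemocyte marker *Hml* was higher in eworo, at 1.10, 2.12 and 0.867 FPKM in replicates 1 to 3. OreR replicates 1 to 3 were at 0.293, 0 and 0 FPKM, without overlap. By the authors' values *Hml* stood at 1.52 FPKM (eworo) against 0.324 FPKM (OreR), and *He* at 1.19 FPKM (eworo) against 0.615 FPKM (OreR). The part of fat body or other cells in the PGRP values was not tested.

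**Figure D3:**
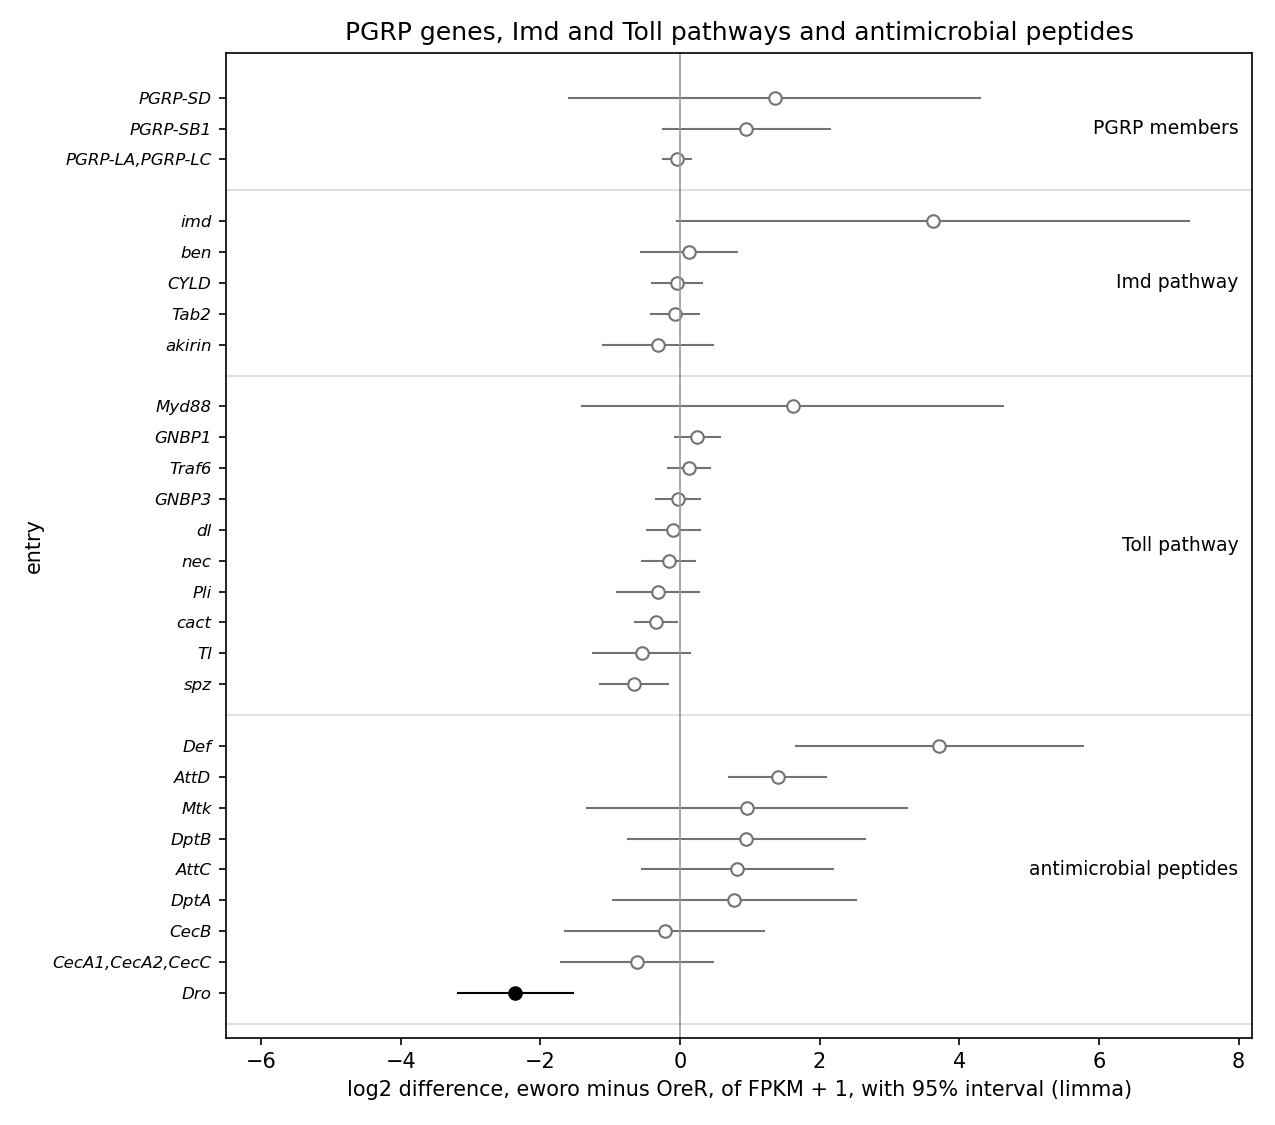
Log2 differences (eworo minus OreR, FPKM + 1) with 95% intervals from limma for the entries compared of the PGRP genes, the Imd and Toll pathways and the antimicrobial peptides; the filled black point passed an adjusted p of 0.05 and open points did not. The PGRP entries run from -0.04 to 1.36, and *Dro* at -2.36 is the only filled point.

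Inside the cell, the Imd pathway was expressed nearly throughout, and none of its 5 entries compared passed the test. Of 19 listed symbols 18 were found in all 6 libraries and 17 had means above 1 FPKM in both strains, where 49.1% of all gene symbols had. In limma 0 of 5 entries passed in either direction (0 under an unadjusted p of 0.05), and their median log2 difference was -0.04, against -0.01 over all 4844 entries. The ubiquitin-conjugating enzyme gene *ben* averaged 210 ± 49.9 in eworo and 193 ± 49.2 FPKM in OreR (mean ± SD, n = 3 per strain), with a log2 difference of 0.13. *akirin*, a nuclear cofactor of Relish, averaged 103 ± 25.9 in eworo and 130 ± 40.1 FPKM in OreR (mean ± SD, n = 3 per strain), with -0.32. *Rel*, the gene of Relish, was lower in eworo by the authors' values, at 20.4 FPKM (eworo) against 35.9 FPKM (OreR). The adaptor gene *imd* itself had 43.0, 32.1 and 44.4 FPKM in eworo replicates 1 to 3, against 34.0, 0 and 0 FPKM in OreR replicates 1 to 3. Its fitted difference of 3.63 (adjusted p = 0.328 in limma; 0.0014 without OreR replicate 1, which leaves OreR at 0) rests on these zeros, whereas the authors' values were 31.5 in eworo and 26.7 FPKM in OreR.

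The exception to this abundance was *pirk*, a target of the pathway whose product binds PGRP-LC and dampens it. Its level was 0.496, 0.558 and 1.11 FPKM in eworo replicates 1 to 3, against 0.359, 0.255 and 0.118 FPKM in OreR replicates 1 to 3. The strains did not overlap, eworo being higher, as in 9.68% of the 4659 entries above 0 and at or below 1 FPKM. This gene was chosen for mention after its values were seen. The unfiltered limma fit gave *pirk* a log2 difference of 0.45 ± 0.16 (SE) with an adjusted p of 0.339. Like the low PGRP genes it was highest in eworo replicate 3. Both brakes on the receptor, *PGRP-LF* and *pirk*, were thus below 1 FPKM by the authors' values in either strain, with 0.654 FPKM for *pirk* in eworo and 0.225 FPKM in OreR.

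The other listed genes of the Toll pathway were likewise expressed, beside its poorly measured PGRPs. Of 19 listed symbols 18 were found in all 6 libraries, each with means above 1 FPKM in both strains, as had 49.1% of all gene symbols. In limma 0 of 10 entries passed in either direction, where 2.62% of all entries did, and 2 of 10 were under an unadjusted p of 0.05, where 15.2% of all entries were, and the median log2 difference was -0.13. *GNBP3*, a sensor of fungal glucan, was the highest, at 370.4 ± 37.2 in eworo and 380.5 ± 43.2 FPKM in OreR (mean ± SD, n = 3 per strain), with a log2 difference of -0.03 that was 0.012 under upper quartile scaling. *cact*, the inhibitor that holds the Toll factors in the cytoplasm, averaged 82.2 ± 8.18 in eworo and 105 ± 10.9 FPKM in OreR (mean ± SD, n = 3 per strain), with a difference of -0.34 and an adjusted p of 0.275 in limma.

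Of 21 listed symbols of antimicrobial peptide genes 20 were found in all 6 libraries. Of these 12 had means above 1 FPKM in both strains, where 49.1% of all gene symbols had, and 9 entries were compared. In limma 0 passed as higher and 1, *Dro*, passed as lower in eworo, where 1.71% and 0.908% of all entries did. Of the 9 entries 3 were under an unadjusted p of 0.05, where 15.2% of all entries were, and the median log2 difference was 0.82. That median was 0.15 without eworo replicate 3 and 0.42 without OreR replicate 1. *Def*, the gene of the peptide defensin, had 46.7, 52.6 and 149 FPKM in eworo replicates 1 to 3, against 2.2, 15.7 and 2.2 FPKM in OreR replicates 1 to 3. Its strains did not overlap and its difference of 3.71 ± 0.82 (SE, n = 3 per strain) missed the threshold, with an adjusted p of 0.112 in limma. Without OreR replicate 2 it was 4.51 with an adjusted p of 0.0385 in limma. *AttD*, an attacin gene, had 7.80, 6.65 and 13.3 FPKM in eworo replicates 1 to 3, against 2.6, 3.37 and 2.34 FPKM in OreR replicates 1 to 3. It did not overlap either and missed the threshold at 1.40 ± 0.28 (SE, n = 3 per strain; adjusted p = 0.0872 in limma). The joint entry of the cecropin genes *CecA1*, *CecA2* and *CecC* was the highest by mean of the 9 entries compared. Its difference was -0.61 ± 0.43 (SE, n = 3 per strain; adjusted p = 0.508 in limma). *Dro* had 15.0, 10.1 and 23.2 FPKM in eworo replicates 1 to 3, against 63.8, 93.7 and 94.2 FPKM in OreR replicates 1 to 3, the opposite direction with no overlap. The call of *Dro* (-2.36 ± 0.33 (SE), adjusted p = 0.0316 in limma) was lost without eworo replicate 1 (adjusted p = 0.120) and without each OreR library (adjusted p = 0.0682 to 0.118 in limma). Of all entries compared, 12.6% had every eworo library above every OreR library and 10.6% had every one below. The peptide genes thus lay on both sides of 0 while the receptor entry differed by -0.04.

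Open chromatin was read from 1 peak list per strain, called on reads pooled over the 3 ATAC-Seq replicates, so these values have no replicate check and no test. Within the gene or 1000 bp on either side, 8 of the 9 genes had a peak in eworo and 7 in OreR. Of all 17807 genes, 77.3% had one in eworo and 75.5% in OreR. *PGRP-SB1* had none in either strain and *PGRP-SA* only 1 in eworo, of pileup 45. The 27 eworo peaks at these genes had a median pileup of 54 tags (44 to 81) and the 26 OreR peaks one of 54 tags (43 to 79), both below the medians of 59 and 61 tags over all 44398 eworo and 42015 OreR peaks. Of the 27 eworo peaks 21 overlapped an OreR peak, and of the 26 OreR peaks 22 overlapped an eworo peak.

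The highest peak of the family lay at the receptor genes. Its summit was 3929 bp from the lower end of *PGRP-LA* in eworo and 3918 bp in OreR, which is inside *PGRP-LA* near its upper end and 549 bp (eworo) or 560 bp (OreR) before the lower end of *PGRP-LC*. It reached 81 tags in eworo and 79 tags in OreR, and the next peak beside it 73 tags in eworo and 72 tags in OreR. *PGRP-LB* had its highest peak inside the gene, with 76 tags in both strains. *PGRP-LE* had 70 tags in eworo and 64 tags in OreR at its highest, but at different places. The summit of the eworo peak was 438 bp beyond the upper end of the gene, and 64 tags were reached in OreR inside the gene. The OreR peak that overlapped this eworo peak had 62 tags. *PGRP-SD*, *PGRP-LF* and *PGRP-SC2* had 1 peak per strain, with 50, 46 and 45 tags in eworo and 54, 51 and 43 tags in OreR. The highest peaks of *PGRP-LE* and *PGRP-LC*, the genes with the highest RNA values, were above the median height of all peaks. So was that of *PGRP-LB*, which had 1.15 FPKM in eworo and 0.612 in OreR on average. Here the highest of several peaks per gene, 7 at *PGRP-LE* and 6 at *PGRP-LC* in eworo, was set against a median over single peaks. A link of RNA level to peak height cannot be read from this.

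**Figure D4:**
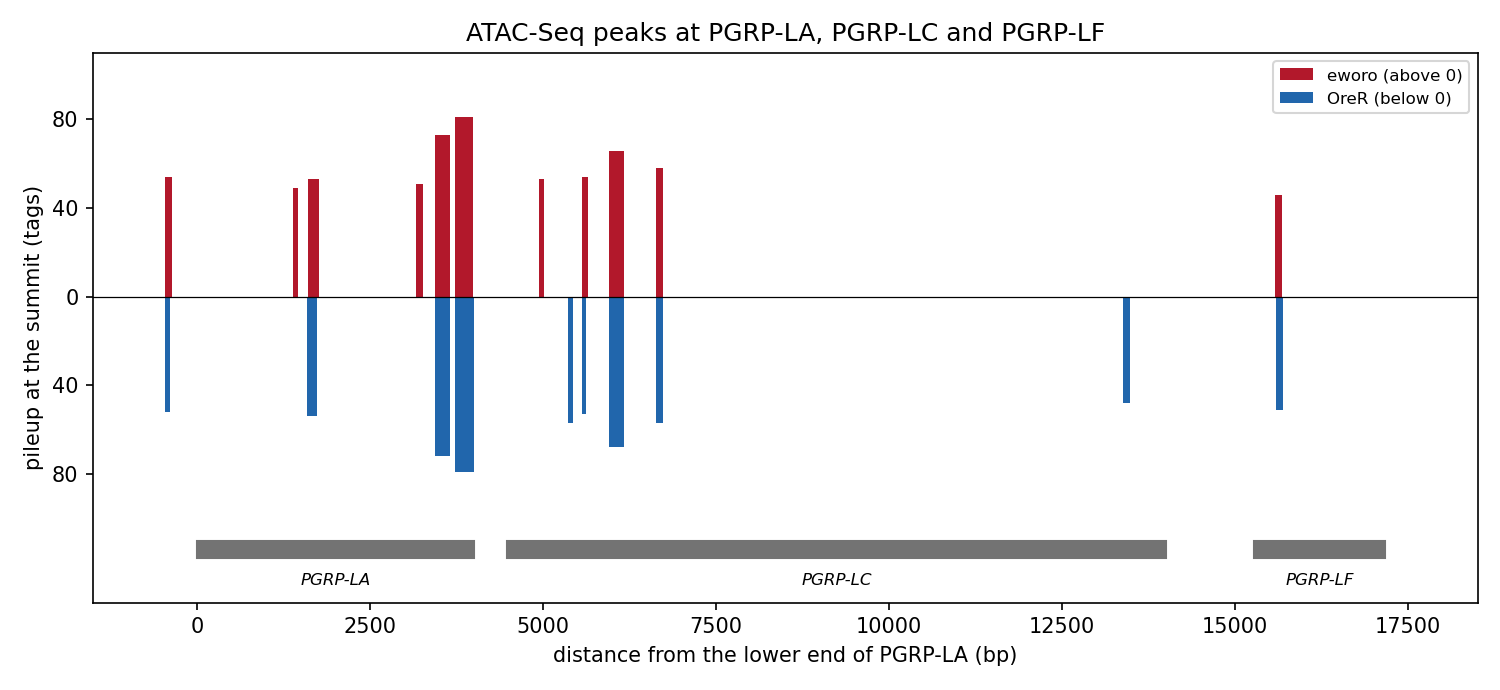
ATAC-Seq peaks at *PGRP-LA*, *PGRP-LC* and *PGRP-LF* by distance from the lower end of *PGRP-LA* (bp); bar width is the peak and bar height its pileup at the summit in tags, eworo above 0 and OreR below it, with grey bars for the genes. The highest pair of bars, 81 tags in eworo and 79 tags in OreR, stands at the upper end of *PGRP-LA*, and most of *PGRP-LC* is without a peak.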

How the data were processed

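RNA-Seq of T2 legs was made on 3 eworo and 3 OreR libraries with a stranded mRNA kit, and whether strand was used in counting is not given in the sources used here. The authors aligned reads with TopHat2 (2.1.1) to genome version 6.12 and deposited FPKM per library from Cufflinks (2.2.1), not scaled between libraries. A second deposited table holds 1 FPKM per strain from Cuffdiff, whose gene IDs were matched to symbols (17344 of 17565, all 13 PGRP genes). Columns with the authors' own fold changes, p-values and q-values between strains were not used. For the ATAC-Seq the authors deposited MACS2 (2.1.1.20160309) peaks per strain, called on pooled reads, with the signal as pileup at the summit, the ratio (fold) over local background and the −log10 q-value. Fragment totals of the RNA libraries are unknown from FPKM, so precision is given by replicates and deposited limits. The pileups were not scaled between strains, in which 53862732 (eworo) and 56972082 (OreR) tags were kept.

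Entries named alike in all 6 libraries (11897) with a mean above 1 FPKM (4844) were divided by the median of ratios and compared with limma 3.58.1 (R 4.3.3) on log2(FPKM + 1), with strain as the only term, a trend in the variance and Benjamini-Hochberg adjustment at 0.05. Fold changes on this scale understate those of low genes. Entries not marked OK, 1 to 4 per library, were left out. Family genes outside this fit, or low, got two-sided exact permutation tests (7 genes, scipy 1.17.1). Lists were summarised over entries whose genes all belong to the list. The scripts were tested on simulated data. All 9 members and the 4 other family genes were named, with up to 4 genes of every other list (those past the threshold, then by mean FPKM) and cell type markers at or near 0. *pirk*, *Rel*, *AttD*, *NimC1*, *Hml*, *He* and *apolpp* were added after their values were seen. The members and lists were chosen with earlier results of these data known. Gene positions are from the RefSeq table of release 6, without strand, so peaks were sought on both sides of a gene. Protein and promoter comparisons that had been planned were not made. Alternatives were another pseudocount, filter, scaling and variance model, a replicate block, and leaving out each library.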

Additional observations from a re-analysis of the deposited data

How the results depend on the processing

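None of the 3 PGRP entries compared was called under any alternative run. The 83 entries higher and 44 lower in eworo became 46 and 24 with a mean above 5 FPKM, and 14 and 13 with the replicate number as a block. With every gene taking the value of its entry, 108 were higher and 70 lower. Leaving out single libraries gave 35 to 88 higher and 23 to 60 lower, the lowest without eworo replicate 3 and the highest without eworo replicate 2. Without eworo replicate 1, OreR replicate 1 and OreR replicate 3 there were 43, 44 and 41 higher and 28, 29 and 24 lower. No pairing by replicate number was seen: deviations of same-numbered libraries correlated at -0.04, -0.11 and 0.05, and others at -0.20 to 0.23. So few correlations cannot exclude a batch shared by same-numbered libraries, and the labels name none. Under the block the differences of the PGRP entries are those of the fit without it, for *PGRP-SB1* 0.95.

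The difference of *PGRP-LA* and *PGRP-LC* was -0.04 and turned to 0.0033 with upper quartile scaling. With a pseudocount of 0.1 the differences were 0.84 for *PGRP-LB*, 0.84 for *PGRP-SC2*, 0.75 for *PGRP-SB2*, 1.63 for *PGRP-SC1a* and 1.24 for *PGRP-SC1b*, and those of the fitted *PGRP-SB1* and *PGRP-SD* were 1.59 and 2.44 in place of 0.95 and 1.36. The median of the Imd list, -0.04, ran from -0.10 to 0.04 when single libraries were left out and was above 0 without eworo replicate 1 (0.045) and without OreR replicate 1 (0.0078). That of the Toll list, -0.13, ran from -0.20 to -0.036, the value without OreR replicate 2. The difference of *GNBP3*, -0.03, was 0.012 with upper quartile scaling and ran from -0.13 to 0.053 with 1 library left out, and that of *ben*, 0.13, from -0.10 to 0.34. *Dro* lost its call under the block (adjusted p = 0.164 in limma). With a −log10 q of at least 10, 4 genes had a peak in eworo and 3 in OreR, in place of 8 and 7. *PGRP-SD* gave no fit without eworo replicate 3, since every other value is 0. The causes of these changes were not tested. The limits of 0.1 on p and of 3 libraries per strain apply to each PGRP gene, and values under 1 FPKM rest on few fragments.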
